A study of Mus musculus with 26 samples.

Results

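Wnt ligands, their receptors and their regulators were followed in mouse embryonic stem (ES) cells with and without ZFP57, a KRAB zinc finger protein that binds methylated DNA and keeps imprints. The set was chosen by name. It holds the genes of the deposited expression table whose symbol is Wnt, Fzd, Dkk, Sfrp, Nkd or Axin followed by a digit, together with *Ctnnb1*, *Lrp5*, *Lrp6*, *Lef1*, *Tcf7*, *Tcf7l1*, *Tcf7l2*, *Sp5* and *Lgr5*. It comprises 50 of the 24409 genes, namely 19 Wnt ligands, 10 frizzled receptors, 3 other receptors, 8 secreted antagonists, 5 cytoplasmic proteins and 5 nuclear factors. Expression was measured in 3 wild-type (WT) libraries and 2 libraries of zygotic ZFP57 knockout (KO) cells. All 5 came from male C57BL/6J lines, derived from embryos taken as morulae (E2.5) that then spent 2 days in culture, and the KO allele is a targeted disruption of the exons for the KRAB domain and the zinc fingers. Both genotypes were grown with LIF and the inhibitors PD0325901, against MEK, and CHIR99021, against GSK3, and were matched for passage up to passage 15. The labels number the libraries without naming the embryo behind each, so p-values measure the spread between these libraries.

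Wnt proteins are lipid-modified secreted signals that bind a frizzled receptor together with LRP5 or LRP6. Binding stops a cytoplasmic complex of Axin, APC, GSK3 and casein kinase 1 from marking β-catenin for destruction, and β-catenin then enters the nucleus and turns on genes with the DNA-binding proteins of the TCF/LEF family. In ES cells β-catenin favours self-renewal, in large part by lifting repression by TCF7L1, and CHIR99021 stabilises β-catenin by blocking GSK3 downstream of the receptors. All libraries of both genotypes therefore come from cells in which the pathway was stimulated chemically.

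Expression was deposited as FPKM, a scale that corrects fragment numbers for the length of each transcript and the size of each library, so levels of different genes can be compared. *Zfp57* itself was at 75.94, 72.34 and 70.55 FPKM in WT and 19.0 and 21.62 FPKM in KO. The paper reports that a western blot showed no ZFP57 protein in the mutant cells. The depth implied by the steps between low values was about 50800000 to 58800000 fragments per library. ES cell markers such as *Pou5f1* (159.01 to 166.57 FPKM in WT, 185.29 and 209.55 FPKM in KO) were abundant in every library, whereas the 7 primitive endoderm markers summed to 0.77 to 0.93 FPKM in WT and 1.12 and 1.44 FPKM in KO, with *Sox7* higher in KO (0.09 to 0.15 FPKM in WT, 0.9 and 0.48 in KO) and *Gata6* at or under 0.05 FPKM. The 6 fibroblast markers summed to 0.16 to 0.36 FPKM, most of it *Thy1*, with *Col3a1* and *Lum* at 0. Genes of chromosome 11 were lower in KO as a group, with a median log2 change of -0.47 and 67.4% of 1224 tested genes called lower. In such bulk RNA, fewer cells of a type and less RNA per cell cannot be told apart.

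The test covered genes whose mean over the 5 libraries reached 0.1 FPKM. Differences between KO and WT are on the log2(FPKM + 0.1) scale, and a gene was called when the adjusted p of limma's moderated test (Benjamini-Hochberg over 14617 genes) was under 0.05. Of the 50 genes, 30 were tested and 14 were called, 8 higher and 6 lower in KO. The called share, 46.7%, lies near the 41.1% called among all tested genes. For calls in one direction, 26.7% of the Wnt genes tested were higher, against 18.8% of all genes, and the 6 lower ones stand beside 22.3% of all genes. The sizes of change were larger than usual, with a median of 0.485 on the log2 scale against 0.249 for all tested genes, and 7 of 30 (23.3%) changed by at least 1 against 8.97% of all. These are descriptions, since the genes were not drawn at random, 15 of the 30 had means below 1 FPKM, and *Wnt3a*, *Fzd1* and *Nkd2* passed the filter although one genotype's mean was under 0.1 FPKM. With 3 libraries against 2 an exact permutation test cannot give a p under 0.1, so the tests rest on the fit across genes.

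**Figure D1:**
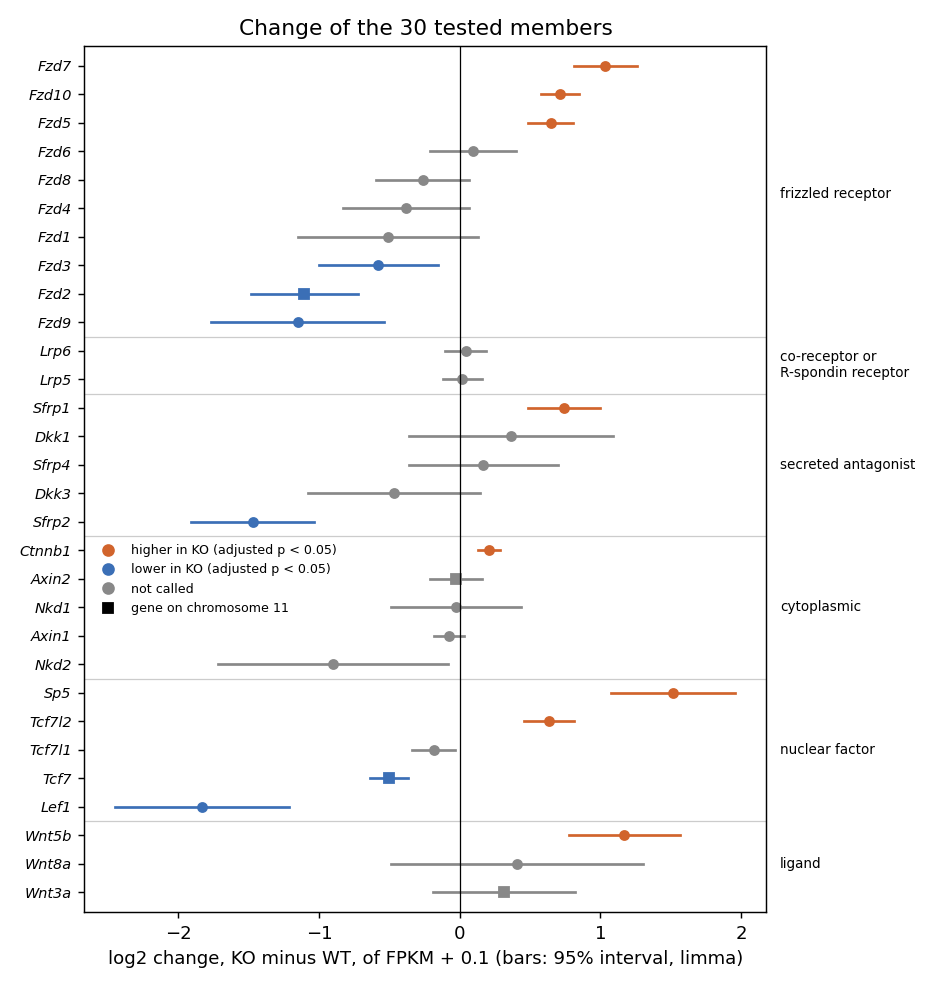
Log2 change (KO minus WT, FPKM + 0.1) of the 30 tested genes, in the order of their roles, with 95% intervals from limma (points: estimates; squares: genes on chromosome 11; colours: called higher, called lower, not called). *Fzd5*, *Fzd7* and *Fzd10* lie on the right and *Fzd2*, *Fzd3* and *Fzd9* on the left within the frizzled family, and *Sp5* and *Lef1* are the extremes.

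Promoter windows are printed for *Sp5* and *Lef1*, which changed most, for *Fzd7*, and for *Dkk1* as a target of the pathway that was not called. RefSeq windows of 300 bases, from 250 before to 50 after an annotated start on GRCm38, were at hand for 34 of the 50 genes. They were searched on both strands for the core element that TCF/LEF proteins bind, taken as CTTTG followed by 2 letters that are each A or T. Of 43 windows of these genes 8 held a match (18.6%), against 16.88% of all 32851 windows, so matches were about as common as elsewhere. They belong to *Sp5*, *Fzd7*, *Tcf7l2* and *Wnt5b*, which were called higher, to *Lef1*, called lower, to *Dkk1*, not called, and to *Wnt3* and *Wnt11*, under the filter described above. The first window of *Lef1*, which fell most, held none, while its window at a downstream start (chr3:131156044-131156343) held CTTTGTA on the opposite strand. Capitals mark the matches, and AACAAAG is CTTTGTT read on the opposite strand. The *Sp5* matches begin 222 and 104 bases before the start, the *Fzd7* match 130 bases before it and the *Dkk1* matches 117 and 98 bases before it.
*Sp5*, chr2:70474673-70474972, plus strand: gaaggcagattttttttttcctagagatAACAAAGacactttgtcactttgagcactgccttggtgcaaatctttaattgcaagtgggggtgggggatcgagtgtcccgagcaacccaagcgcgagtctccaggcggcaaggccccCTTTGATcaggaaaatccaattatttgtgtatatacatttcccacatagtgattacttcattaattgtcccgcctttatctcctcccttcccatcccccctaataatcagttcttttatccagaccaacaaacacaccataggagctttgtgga
*Fzd7*, chr1:59481897-59482196, plus strand: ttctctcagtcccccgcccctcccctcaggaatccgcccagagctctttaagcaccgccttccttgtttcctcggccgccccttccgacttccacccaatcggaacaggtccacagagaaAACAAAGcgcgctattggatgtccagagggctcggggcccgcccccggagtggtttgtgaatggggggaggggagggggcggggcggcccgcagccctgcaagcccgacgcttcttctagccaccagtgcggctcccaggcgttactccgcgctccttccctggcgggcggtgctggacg
*Dkk1*, chr19:30549447-30549746, minus strand: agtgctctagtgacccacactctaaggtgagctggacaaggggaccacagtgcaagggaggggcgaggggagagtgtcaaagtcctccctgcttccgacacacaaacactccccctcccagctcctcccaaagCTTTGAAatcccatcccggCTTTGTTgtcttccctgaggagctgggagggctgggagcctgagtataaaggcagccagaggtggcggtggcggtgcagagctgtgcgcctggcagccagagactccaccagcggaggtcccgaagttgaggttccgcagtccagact
*Lef1*, chr3:131110047-131110346, plus strand: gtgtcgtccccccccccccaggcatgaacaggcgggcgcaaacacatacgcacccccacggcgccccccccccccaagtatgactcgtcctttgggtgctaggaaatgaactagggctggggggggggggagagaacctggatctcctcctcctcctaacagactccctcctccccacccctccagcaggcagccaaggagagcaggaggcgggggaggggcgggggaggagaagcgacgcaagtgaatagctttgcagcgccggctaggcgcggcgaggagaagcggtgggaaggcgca
A match describes these letters and is not evidence of binding.

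Few Wnt ligands were expressed. Of 19 ligand genes, 16 had a mean under 0.1 FPKM and fell below the filter, namely *Wnt1*, *Wnt2*, *Wnt2b*, *Wnt3*, *Wnt4*, *Wnt5a*, *Wnt6*, *Wnt7a*, *Wnt7b*, *Wnt8b*, *Wnt9a*, *Wnt9b*, *Wnt10a*, *Wnt10b*, *Wnt11* and *Wnt16*. The highest value of any of these in any library was 0.14 FPKM, for *Wnt6* in KO library 2, and no value of these genes rested on more than about 26.9 fragments. *Wnt4* and *Wnt9b* were listed at 0 in all 5 libraries, where 3 fragments would be at most 0.0155 and 0.0131 FPKM per library. Values were rounded to 2 decimals, so a listed 0 may still hide a fragment. *Wnt2b* was at 0.07, 0.03 and 0.05 FPKM in WT and listed at 0 in both KO libraries, and *Wnt7b* was at 0.06, 0.07 and 0.12 FPKM in WT and 0.0 and 0.02 FPKM in KO. These levels rest on about 6.3 to 13.8 fragments per WT library for *Wnt2b* and 14.7 to 26.9 for *Wnt7b*. In the fit without a filter, where 29.1% of 19757 genes were called, *Wnt2b* (log2 change -0.58, limma adjusted p = 0.0307) and *Wnt7b* (-0.73, adjusted p = 0.0359) were called lower, and the other ligands under the filter that had any value above 0 were not called.

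*Wnt5b*, a ligand known mainly for signalling that does not pass through β-catenin, was the only ligand called among the 3 that passed the filter. It was at 0.42, 0.51 and 0.47 FPKM in WT and 1.32 and 1.04 FPKM in KO, from about 61.7 to 79.5 fragments per WT library and 152.8 to 184.1 per KO library. Both KO libraries lay above all WT libraries, 2.53-fold on the means (log2 change 1.17, standard error 0.163, limma adjusted p = 0.00276). The gene (chr6:119432531-119544824, minus strand, GRCm38) overlaps the annotated spans of *Fbxl14* and several non-coding genes on the opposite strand, and whether counting used strand is not given in the sources used here. *Wnt3a*, a ligand that acts through β-catenin, was at 0.11, 0.09 and 0.08 FPKM in WT and 0.13 and 0.15 FPKM in KO, and was not called (log2 change 0.31, adjusted p = 0.272). *Wnt8a*, another ligand of the β-catenin branch, ranged from 0.12 to 0.22 FPKM in WT and from 0.13 to 0.39 FPKM in KO, with overlap. Summed over all 19 ligands the level was 1.24, 1.19 and 1.14 FPKM in WT and 2.08 and 1.72 FPKM in KO. *Wnt5b* made up 33.9 to 42.9% of that sum in WT and 60.5 to 63.5% in KO.

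The frizzled receptors, which bind Wnt proteins at the cell surface, were all expressed above the filter. Of 10 genes, 3 were higher, 3 were lower and 4 were not called, beside 18.8% higher and 22.3% lower among all tested genes. The 3 that rose were the most abundant 3 of the family. *Fzd5* was at 12.66, 11.9 and 11.88 FPKM in WT and 17.9 and 20.29 FPKM in KO (log2 change 0.65, standard error 0.0661, limma adjusted p = 0.00103). *Fzd10* was at 7.62, 7.55 and 7.26 FPKM in WT and 11.89 and 12.75 FPKM in KO (log2 change 0.71, standard error 0.0546, limma adjusted p = 5.41e-04). *Fzd7*, a receptor prominent in pluripotent cells, was at 2.78, 2.85 and 2.52 FPKM in WT and 5.32 and 6.02 FPKM in KO (log2 change 1.03, standard error 0.0915, limma adjusted p = 7.02e-04). In each of these both KO libraries exceeded every WT library, by 1.57-fold, 1.65-fold and 2.09-fold on the means.

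The 3 frizzled genes that fell were at or below about 1 FPKM in WT. *Fzd2* was at 1.02, 0.98 and 1.1 FPKM in WT and 0.49 and 0.37 FPKM in KO (log2 change -1.10, standard error 0.156, limma adjusted p = 0.0029). It lies on chromosome 11, and with the median of that chromosome subtracted its change was -0.63 and it was still called (adjusted p = 0.0161). *Fzd9* was at 0.79, 0.51 and 0.46 FPKM in WT and 0.17 and 0.24 FPKM in KO, again without overlap (log2 change -1.15, standard error 0.253, limma adjusted p = 0.0139). Without KO library 1 the *Fzd9* change was -0.98 and the call was lost (adjusted p = 0.0761). *Fzd3*, the receptor best known for planar polarity and axon guidance, was at 0.89, 0.82 and 1.15 FPKM in WT and 0.57 and 0.63 FPKM in KO (log2 change -0.58, standard error 0.173, limma adjusted p = 0.0394). This call is the least firm of the set. It was lost when WT library 1 (-0.62, adjusted p = 0.0799), WT library 3 (-0.45, adjusted p = 0.0929), KO library 1 (-0.52, adjusted p = 0.147) or KO library 2 (-0.64, adjusted p = 0.101) was left out, and held without WT library 2 (-0.67, adjusted p = 0.049).

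Of the frizzled genes without a call, *Fzd6* overlapped between genotypes, at 1.1, 1.08 and 1.08 FPKM in WT and 1.06 and 1.28 FPKM in KO (log2 change 0.09, standard error 0.126, limma adjusted p = 0.589). *Fzd4* (0.52 to 0.73 FPKM in WT, 0.41 and 0.49 in KO) and *Fzd8* (0.65 to 0.72 FPKM in WT, 0.56 in both KO libraries) had both KO libraries below WT without passing the test. *Fzd1* ranged from 0.12 to 0.19 FPKM in WT and from 0.05 to 0.12 FPKM in KO. The family as a whole summed to 28.43, 27.04 and 26.95 FPKM in WT and 38.57 and 42.6 FPKM in KO. *Fzd5*, *Fzd7* and *Fzd10* together held 80.4 to 82.5% of that sum in WT and 91.0 to 91.7% in KO. The other 7 genes together went from 4.74 to 5.37 FPKM in WT to 3.46 and 3.54 FPKM in KO. The frizzled mRNA of KO cells was thus larger in sum and more concentrated in the 3 leading genes, in both KO libraries. No test was made of these sums, whose parts had been tested singly.

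**Figure D2:**
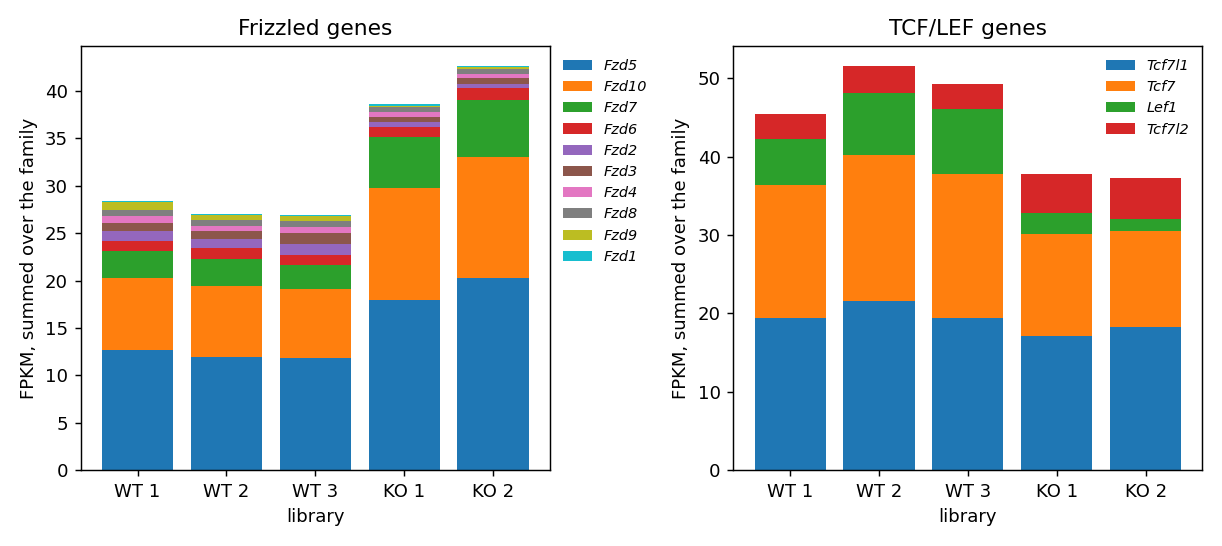
FPKM per library (x axis) summed over the 10 frizzled genes (left) and the 4 TCF/LEF genes (right), each colour a gene. The frizzled bars of both KO libraries (38.57 and 42.6 FPKM) are taller than the WT bars, with more *Fzd5*, *Fzd7* and *Fzd10*. The TCF/LEF bars (37.82 and 37.31 FPKM) are shorter, with less *Lef1*, *Tcf7* and *Tcf7l1* and more *Tcf7l2*. *Tcf7* lies on chromosome 11 and was not called relative to its median, and *Tcf7l1* was just short of the threshold.

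Neither co-receptor for Wnt was called. *Lrp6*, which passes the Wnt signal on to the Axin complex, was at 12.73, 12.41 and 13.13 FPKM in WT and 12.46 and 13.86 FPKM in KO. Its genotypes overlapped, and the 95% interval of its log2 change ran from -0.10 to 0.19 (limma adjusted p = 0.599). Its close relative *Lrp5* was at 6.39, 6.19 and 6.53 FPKM in WT and 6.59 and 6.31 FPKM in KO, also with overlap (log2 change 0.02, standard error 0.0564, limma adjusted p = 0.826). *Lgr5*, a receptor for R-spondins and a marker of Wnt-driven adult stem cells, did not exceed 0.02 FPKM in any library and was not tested.

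The secreted antagonists were dominated by one gene. *Sfrp1*, which binds Wnt proteins outside the cell, was at 25.3, 20.38 and 19.87 FPKM in WT and 35.63 and 37.04 FPKM in KO. Both KO libraries were higher than every WT library, 1.66-fold on the means (log2 change 0.74, standard error 0.106, limma adjusted p = 0.00301). Its relative *Sfrp2* moved the other way, from 0.97, 1.37 and 1.05 FPKM in WT to 0.32 and 0.36 FPKM in KO (log2 change -1.47, standard error 0.18, limma adjusted p = 0.0018). Since *Sfrp1* made up 91.9 to 94.2% of the Sfrp sum in WT and 97.5 to 97.9% in KO, the sum followed it, with 21.51 to 26.87 FPKM in WT and 36.55 and 37.85 FPKM in KO. *Sfrp4* overlapped between genotypes (0.34 to 0.5 FPKM in WT, 0.43 and 0.59 in KO) and *Sfrp5*, at 0.08 to 0.1 FPKM in WT and 0.01 and 0.02 FPKM in KO, was under the filter and was called lower in the fit without one (log2 change -0.75, limma adjusted p = 0.00822, about 8.9 to 10.5 fragments per WT library).

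The Dickkopf genes, whose products block LRP5 and LRP6, were low. *Dkk1* was at 0.28, 0.2 and 0.27 FPKM in WT and 0.51 and 0.23 FPKM in KO, so that only KO library 1 lay above WT, and it was not called (log2 change 0.37, standard error 0.298, limma adjusted p = 0.366). *Dkk3*, a diverged member with no settled role in the pathway, was at 0.48 to 0.67 FPKM in WT and 0.29 and 0.53 FPKM in KO, with overlap. *Dkk4* did not exceed 0.03 FPKM and *Dkk2* was listed at 0 throughout, which allows at most 0.0159 FPKM per library.

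Among the cytoplasmic members *Ctnnb1*, the gene for β-catenin, was by far the most abundant of all 50. It was at 86.43, 87.87 and 88.01 FPKM in WT and 100.7 and 101.05 FPKM in KO. The spread within each genotype was narrow (SD 0.875 FPKM in WT and 0.247 FPKM in KO), and a rise of 1.15-fold was called (log2 change 0.21, standard error 0.0324, limma adjusted p = 0.00424). FPKM gives mRNA only, and the protein, whose stability the pathway sets, was not measured here. *Axin1*, the scaffold of the destruction complex, was at 10.7, 10.35 and 10.47 FPKM in WT and 9.95 and 9.99 FPKM in KO, which did not pass the test (log2 change -0.07, standard error 0.0443, limma adjusted p = 0.223).

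*Axin2*, the best known feedback target of β-catenin and itself a part of the destruction complex, was at 11.31, 11.62 and 11.97 FPKM in WT and 12.41 and 10.54 FPKM in KO. The KO libraries lay on either side of WT (log2 change -0.02, standard error 0.076, limma adjusted p = 0.826). *Axin2* lies on chromosome 11 (chr11:108917828-108950783, plus strand). With the median of that chromosome subtracted its log2 change was 0.46 and was called higher (limma adjusted p = 0.00373). Its call thus depends on whether it is read against all genes or against its chromosome. The Naked genes *Nkd1* and *Nkd2*, feedback inhibitors that bind Dishevelled, were low. *Nkd1* was at 0.19 to 0.24 FPKM in WT and 0.19 and 0.21 in KO. *Nkd2* was at 0.11, 0.19 and 0.34 FPKM in WT and 0.06 FPKM in both KO libraries, which missed the threshold (log2 change -0.90, standard error 0.337, limma adjusted p = 0.0762) and passed it without WT library 1 (-1.16, adjusted p = 0.0384).

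**Figure D3:**
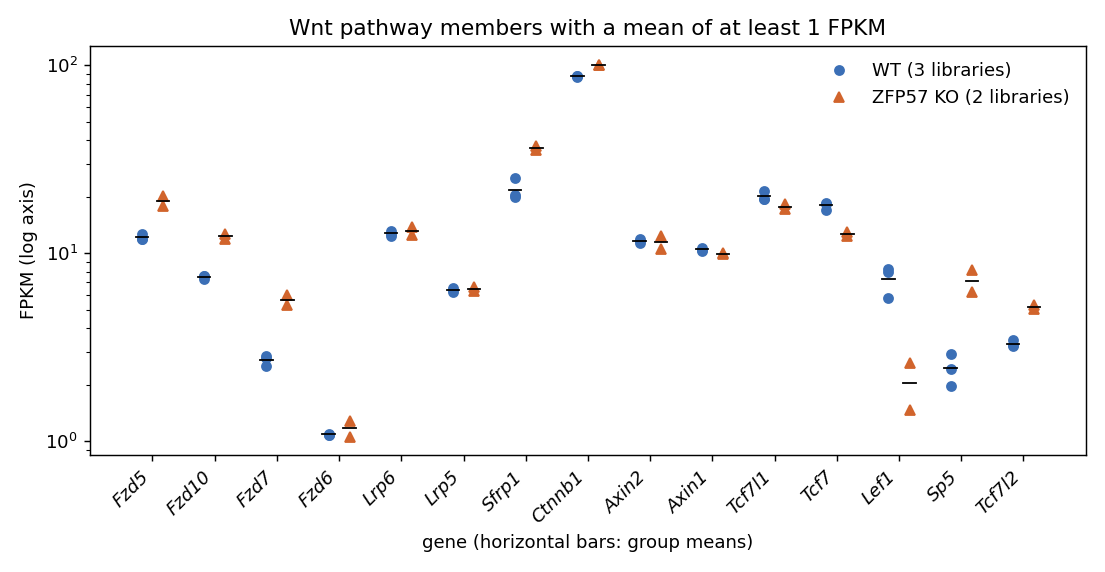
FPKM (log axis) in each library of the 15 genes whose mean reached 1 FPKM, in the order of their roles (circles: 3 WT libraries; triangles: 2 KO libraries; bars: group means). *Lef1* and *Sp5* show the widest gaps between genotypes, while *Lrp5*, *Lrp6* and *Axin2* overlap.

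The nuclear factors showed the largest changes in both directions. *Lef1*, which binds DNA with β-catenin and is itself a target of the pathway, was at 5.79, 7.91 and 8.21 FPKM in WT and 2.6 and 1.47 FPKM in KO. Both KO libraries lay below every WT library, at 27.9% of the WT mean (log2 change -1.83, standard error 0.254, limma adjusted p = 0.00273). Leaving out one library at a time moved the change between -2.22 and -1.44 and kept the call. *Sp5*, a zinc finger repressor switched on by β-catenin, moved the opposite way, from 1.98, 2.91 and 2.43 FPKM in WT to 8.12 and 6.19 FPKM in KO. That is 2.93-fold on the means, without overlap (log2 change 1.52, standard error 0.182, limma adjusted p = 0.00168), and between 1.32 and 1.71 with any one library left out. In fragments, *Sp5* rested on about 229.9 to 358.5 per WT library and 718.7 to 894.8 per KO library. These classical targets of the same pathway thus moved apart in the same 2 KO libraries.

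The TCF/LEF family has 4 genes, and its makeup differed between genotypes. *Tcf7l1*, mainly a repressor of pluripotency genes, was at 19.42, 21.57 and 19.45 FPKM in WT and 17.15 and 18.21 FPKM in KO, below WT in both libraries but just short of the threshold (log2 change -0.19, standard error 0.0617, limma adjusted p = 0.0536). Chromosome 6, on which it lies, had a median change of 0.17, and relative to that the *Tcf7l1* change was -0.37 and was called (adjusted p = 0.00772). *Tcf7*, mainly an activator, was at 17.0, 18.58 and 18.36 FPKM in WT and 13.02 and 12.3 FPKM in KO (log2 change -0.50, standard error 0.0562, limma adjusted p = 0.00137). It lies on chromosome 11, its change was close to that chromosome's median, and with the median subtracted it was -0.02 and not called (adjusted p = 0.774). *Tcf7l2*, the main TCF factor of the intestine, was at 3.2, 3.48 and 3.25 FPKM in WT and 5.05 and 5.33 FPKM in KO, higher in both KO libraries (log2 change 0.63, standard error 0.0725, limma adjusted p = 0.00146). *Tcf7*, *Tcf7l1* and *Tcf7l2* each overlap another annotated gene on the opposite strand, *Skp1* in the case of *Tcf7*.

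The family summed to 45.41, 51.54 and 49.27 FPKM in WT and 37.82 and 37.31 FPKM in KO. *Lef1* (means 7.303 FPKM in WT and 2.035 FPKM in KO), *Tcf7* (17.98 and 12.66 FPKM) and *Tcf7l1* (20.15 and 17.68 FPKM) contribute to the lower sum. The change of *Tcf7* was not called relative to its chromosome, and that of *Tcf7l1* was just short of the threshold. *Lef1* made up 12.8 to 16.7% of the sum in WT and 6.87 and 3.94% in KO, and *Tcf7l2* made up 6.6 to 7.05% in WT and 13.4 and 14.3% in KO. The order of these 2 genes was reversed, with 0.396 to 0.553 units of *Tcf7l2* per unit of *Lef1* in WT and 1.94 and 3.63 in KO. *Tcf7l1* and *Tcf7* together remained the bulk of the family in every library.

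Of the 50 genes, 7 lie on chromosome 11, where 67.4% of tested genes were called lower and 2.7% higher. *Axin2*, *Tcf7*, *Fzd2* and *Wnt3a* were tested, and *Wnt3*, *Wnt9a* and *Wnt9b* were under the filter. Only *Tcf7* and *Fzd2* were called, both lower. Relative to the chromosome median *Fzd2* stayed lower, *Tcf7* was not called, and *Axin2* and *Wnt3a* (0.79, adjusted p = 0.0256) were called higher. *Wnt3a* passed the filter through the KO libraries and rests on about 11.2 to 22.9 fragments per library. For genes on the other chromosomes apart from chromosome 6, the subtraction changed no call.

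**Figure D4:**
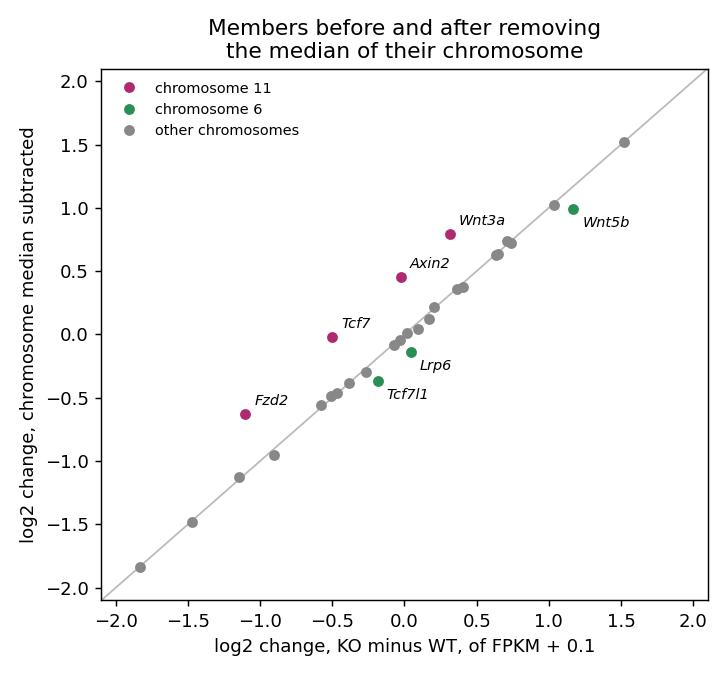
Log2 change of the 30 tested genes (x axis) against the same with the median log2 change of their chromosome subtracted (y axis), with the line of equality. The 4 genes of chromosome 11 lie above the line, where *Axin2* moves from -0.02 to 0.46 and *Tcf7* from -0.50 to -0.02, and the genes of chromosome 6 lie below it.

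Outside the 50 genes, 78 further pathway genes were listed by function, and 64 were tested. Of these 31 were called (48.4%, against the 41.1% of all genes), 19 higher and 12 lower. The genes named here are the 12 with the largest changes among those called whose mean reached 1 FPKM. The genes of chromosome 11 given as a group, *Gsk3b*, *Csnk1a1*, *Klf2*, *Ccnd1*, *Id2*, *Nanog*, *Porcn*, *Ryk*, *Ror1* and the cell type markers were named after their values were seen. Among 11 tested genes for Wnt secretion and other surface proteins, 2 were higher and 2 lower. *Wls*, the carrier that takes Wnt proteins to the cell surface, rose from 2.89, 2.83 and 2.32 FPKM in WT to 7.44 and 5.87 FPKM in KO (log2 change 1.28, standard error 0.138, limma adjusted p = 0.00124). *Ror2*, a receptor for Wnt5-type ligands, rose from 2.82, 2.84 and 2.81 FPKM to 5.41 and 6.66 FPKM (log2 change 1.06, standard error 0.099, limma adjusted p = 7.87e-04). Other genes of this list were not called, among them *Porcn*, whose product adds the lipid to Wnt proteins (3.89 to 4.14 FPKM in WT, 3.97 and 4.7 in KO), and the Wnt receptors *Ryk* (10.56 to 11.41 FPKM in WT, 10.01 and 10.45 in KO) and *Ror1* (0.25 to 0.46 FPKM in WT, 0.2 and 0.46 in KO). *Kremen1*, a Dickkopf receptor, was lower (1.43 to 1.49 FPKM in WT, 0.93 and 0.94 in KO, log2 change -0.59), as was *Znrf3*, a ubiquitin ligase that removes frizzled receptors (log2 change -0.36). Of 3 tested antagonists outside the 50 genes 1 was lower, *Notum*, an enzyme that inactivates Wnt proteins (17.0, 20.61 and 19.01 FPKM in WT, 12.49 and 9.25 FPKM in KO, log2 change -0.80, limma adjusted p = 0.00578). All of these lower genes lie on chromosome 11, as do *Csnk1d*, *Fbxw11* and *Dvl2*, which were also called lower. With the median of that chromosome subtracted none of these 6 was called lower. *Kremen1* was then at -0.12 (adjusted p = 0.404), *Notum* at -0.32 (adjusted p = 0.109), *Znrf3* at 0.12, *Csnk1d* at 0.10 and *Fbxw11* at 0.13, and *Dvl2* was called higher (0.26, adjusted p = 0.01).

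In the destruction complex and Dishevelled list 3 of 14 tested genes were higher and 4 lower, where *Csnk1d*, *Fbxw11* and *Dvl2* of the lower ones are the chromosome 11 genes whose calls did not hold against its median. These 7 of 14 stand beside the 41.1% of all genes. *Btrc*, the ubiquitin ligase subunit that recognises phosphorylated β-catenin, fell from 5.77, 5.33 and 5.9 FPKM to 3.32 and 3.42 FPKM (log2 change -0.73, standard error 0.0707, limma adjusted p = 8.71e-04), whereas *Gsk3b* and *Csnk1a1*, kinases of the complex, were higher by 0.31 and 0.29 on the log2 scale. Among 13 nuclear cofactors 4 were higher and 2 lower. *Tle3*, a Groucho-type corepressor of TCF proteins, went from 13.64, 13.74 and 13.22 FPKM in WT to 20.27 and 22.72 FPKM in KO (log2 change 0.66, standard error 0.0586, limma adjusted p = 7.02e-04). Among 9 planar polarity genes 4 were higher, with *Celsr1* leading (log2 change 0.63), and 2 lower. All these counts stand beside 18.8% higher and 22.3% lower among all genes.

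Of 9 tested targets of β-catenin outside the 50 genes, 4 were higher and none was called lower, beside 18.8% and 22.3% of all tested genes. Their median log2 change was 0.575. That median counts *Cdx2* (means 0.07 FPKM in WT and 0.175 FPKM in KO, not called), which passed the filter through the KO libraries, where it is high. *Cdx1*, a caudal homeobox gene induced by Wnt in the posterior embryo, rose from 3.92, 3.63 and 4.37 FPKM to 12.58 and 15.76 FPKM (log2 change 1.80, standard error 0.119, limma adjusted p = 3.95e-04). *Myc* rose from 2.02, 1.92 and 1.25 FPKM to 3.49 and 4.33 FPKM (log2 change 1.15, standard error 0.216, limma adjusted p = 0.00788) and *Tbx3* by 0.58 on the log2 scale. *T* (Brachyury), named here after its values were seen because its mean was under 1 FPKM, went from 0.29, 0.51 and 0.3 FPKM to 1.02 and 0.67 FPKM (log2 change 1.02, limma adjusted p = 0.0266). *Ccnd1*, *Id2* and *Axin2* overlapped between genotypes. *Lef1* was lower, and *Notum* and *Znrf3*, from the other lists, were lower but not relative to the median of chromosome 11, as given above. *T* and *Cdx2* also mark other cell types. Of 5 tested mesendoderm markers 2 were higher, *T* and *Eomes* (0.38 to 0.6 FPKM in WT, 2.13 and 2.4 in KO), the list summed to 2.1 to 2.47 FPKM in WT and 4.38 and 5.01 FPKM in KO, and *Mesp1* was at 0 in 4 of the 5 libraries. In the other marker lists *Sox7* (1 of 4 tested primitive endoderm genes), *Fgf5* (1 of 5 formative epiblast genes), *Krt8* (1 of 6 trophoblast genes) and *Sox1* (1 of 4 neural genes) were called higher, and *Pou3f1*, *Tfap2c* and *Nes* of the last 3 lists lower. *Fgf5* and *Sox1* had WT means under 0.1 FPKM and passed the filter through the KO libraries, where they are high. Of 8 ES cell markers 4 were higher (*Pou5f1*, *Esrrb*, *Klf4* and *Tfcp2l1*) and none was called lower. The part of such cells in these changes was not tested.

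**Figure D5:**
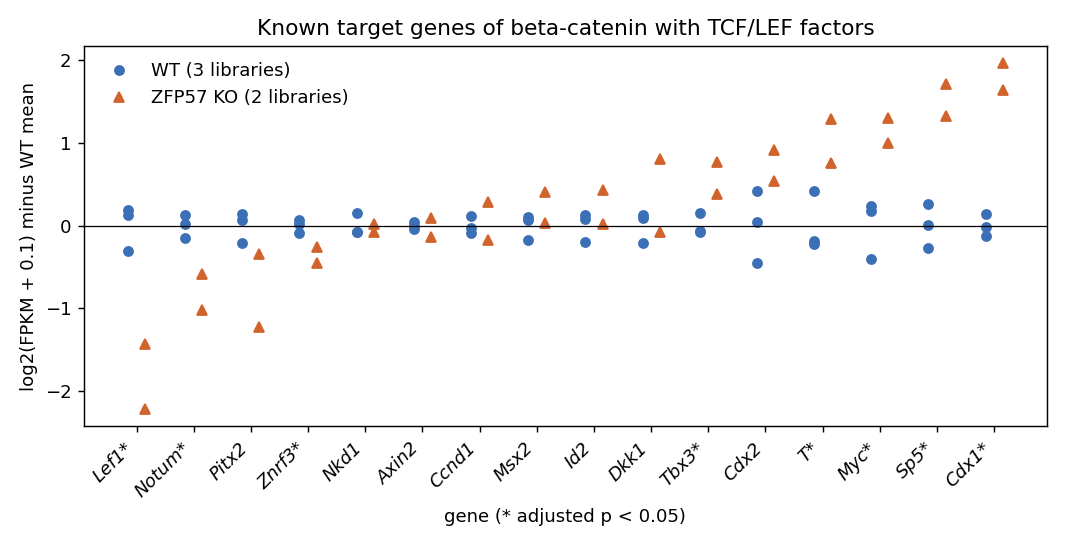
Log2(FPKM + 0.1) in each library relative to the WT mean for known targets of β-catenin, ordered by change (circles: 3 WT libraries; triangles: 2 KO libraries; asterisks: adjusted p under 0.05). The KO libraries of *Lef1* and *Notum* (the latter on chromosome 11 and not called relative to its median) lie below all WT libraries and those of *Sp5*, *Cdx1* and *Myc* above them, with *Axin2* and *Nkd1* near 0.

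Of 5 pluripotency genes known to be repressed by TCF7L1, *Tfcp2l1* (90.14, 87.4 and 88.61 FPKM in WT, 132.15 and 136.87 FPKM in KO, log2 change 0.60, limma adjusted p = 3.65e-04) and *Esrrb* (log2 change 0.42) were higher and *Klf2* was lower (log2 change -0.28), beside 18.8% higher and 22.3% lower among all genes. *Nanog* was not called, at 193.92 to 203.97 FPKM in WT and 181.4 and 190.63 FPKM in KO (log2 change -0.11). It lies on chromosome 6, and with the median of that chromosome subtracted its change was -0.28 and was called lower (adjusted p = 0.00205).

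ZFP57 binding was compared with the position of the 50 genes. The deposited list holds 1423 peaks in C57BL/6J cells, as positions without heights. No peak lay within 20 kb of any of the 50 genes, against 4.25% of 24288 placed genes, and the median distance to a peak was 684.5 kb (598.3 kb for all genes). The closest was a peak of 269 bp that lay 43.3 kb from *Axin2* and holds the hexamer TGCCGC, known as the core of the ZFP57 motif, in capitals here on the plus strand.
Peak near *Axin2*, chr11:108994116-108994384: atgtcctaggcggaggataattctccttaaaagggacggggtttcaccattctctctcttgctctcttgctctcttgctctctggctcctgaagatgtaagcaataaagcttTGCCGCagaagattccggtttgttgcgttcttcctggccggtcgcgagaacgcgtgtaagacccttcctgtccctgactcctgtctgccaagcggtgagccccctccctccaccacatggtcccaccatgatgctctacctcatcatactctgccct
*Sfrp4* followed at 51.5 kb, *Dkk4* at 62.1 kb and *Fzd5* at 87.5 kb. The genes that changed most, *Lef1* and *Sp5*, were 189.6 and 204.3 kb from the nearest peak. The hexamer was present in 10 of the 43 promoter windows (23.26%) and in 11.61% of all windows, and base composition was not compared.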

How the data were processed

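Total RNA depleted of ribosomal RNA was sequenced as paired reads of 150 bp from 3 WT and 2 KO libraries. The authors deposited FPKM per gene, rounded to 2 decimals, and the positions of ZFP57 peaks (the deposited lists hold no height or score). The submitters' processing notes name FastQC 0.11.5, Trim Galore 0.2.7, BWA 0.6.2, Picard, MACS2 2.1.0 and STAR 2.5.2. The counting program, its strand setting and the annotation are not given in the sources used here, so fragment numbers, from RefSeq exon lengths, are approximate.

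With limma 3.58.1 (eBayes with trend, R 4.3.3), KO was compared with WT on log2(FPKM + 0.1) for genes averaging 0.1 FPKM or more, two-sided, with Benjamini-Hochberg adjustment over all genes tested. Genes and peaks were placed on GRCm38 with RefSeq. The Wnt genes and the other lists were chosen with earlier results of these data known. Every Wnt gene is named, those of at least 1 FPKM with all values, and of other lists the 12 called genes of at least 1 FPKM with the largest changes. Other genes given with values were chosen after those were seen. Alternatives covered the pseudocount, filter, scaling, chromosome median, variance model, replicate block, threshold, single libraries, peak window and peak list (a second deposited list, named for hybrid lines, whose origin is not given in the sources used here). Tables and figures were made with Python 3.11.15, numpy 2.4.6, pandas 2.3.3 and matplotlib 3.10.9.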

Additional observations from a re-analysis of the deposited data

How the results depend on the processing

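Each called gene was refitted 14 or 15 times, since genes under 1 FPKM have no fit with the higher filter. Of the 14, 10 kept their call and direction in every fit made for them, *Lef1*, *Sp5*, *Wnt5b*, *Fzd2*, *Fzd5*, *Fzd7*, *Fzd10*, *Sfrp1*, *Sfrp2* and *Tcf7l2*. *Fzd3*, *Fzd9*, *Tcf7* and *Ctnnb1* did not. With a log2 change of at least 1 in size 7 of 30 Wnt genes were called, 3 of them higher, and 5 of the other pathway genes, beside 8.03% of all genes. With the filter raised to a mean of 1 FPKM, which leaves 15 Wnt genes to test, 10 were called, 7 higher and 3 lower, beside 45.9% of all genes tested there. At an adjusted p under 0.01, 12 Wnt genes and 16 other pathway genes (in place of 31) were called, beside 22.5% of all genes, so the nearness of the Wnt share to that of all genes holds for the reported threshold and not for these settings. Leaving out one library gave 12 to 14 Wnt genes (8 higher throughout, 4 to 6 lower) and 19 to 26 other pathway genes, fewest without KO library 2. Of all genes, 31.6% were called without WT library 1, 32.1% without WT library 2 and 28.9% without WT library 3, down from 41.1%. The Wnt counts there were 14, 14 and 13 of 30, so the nearness of the shares did not hold in these fits either. Fits without a KO library leave no replicate in that group, so no share is compared for them. *Axin2*, at -0.02 and not called, was at 0.46 and called higher with the chromosome median subtracted. *Fzd3* was also not called without a filter (adjusted p = 0.0695) or with quantile normalization (adjusted p = 0.0782). *Fzd8* was called without a variance trend (-0.26, adjusted p = 0.0342), and *Tcf7l1* with that filter, median ratio scaling or a robust fit (adjusted p from 0.0457 to 0.0494). With a window of 50 kb 1 gene (2%), *Axin2*, lay near a peak, against 8.107% of all placed genes.

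The libraries of WT and KO share the numbers 1 and 2. Deviations of same-numbered libraries from their group means correlated at -0.15 and -0.153 over 10664 genes, which gave no sign of pairing. With 2 KO libraries their deviations mirror each other, so these 2 values are not independent. Whether same-numbered libraries shared a batch was not tested. With the replicate number as a block 12 of 30 Wnt genes were called (7 higher, 5 lower) and 15 other pathway genes, beside 20.6% of all genes, and *Ctnnb1* (0.21, adjusted p = 0.0534) and *Fzd3* (-0.45, adjusted p = 0.17) lost their calls. So did the β-catenin targets *T* (adjusted p = 0.128) and *Tbx3* (adjusted p = 0.0695). Without a filter 16 Wnt genes were called, 8 of them lower, among these *Sfrp5*, *Wnt2b* and *Wnt7b*. Depth limits such genes, and the 16 ligands under the filter rest on at most about 26.9 fragments per library.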
